A study of Mus musculus with 2 samples.

Results

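Extracellular matrix and stromal transcripts were examined in thioglycollate-elicited mouse macrophages after LPS. The group was defined by gene symbol, as the collagen chains, the laminin chains and 22 further named genes that encode matrix proteins or mark fibroblasts, smooth muscle, mesothelium and epithelium. It held 59 of the 8220 genes named by a single symbol, measured by 74 of the 12654 probe sets of the array, and 3 of the named genes (Thbs1, Spp1 and Fbn1) were not analysed here. The Pac1-/- array measured RNA of peritoneal macrophages from mice without functional PAC1, the nuclear MAP kinase phosphatase encoded by Dusp2, and the wild-type array measured the same cells from age-matched Pac1+/+ littermates. In both groups 2 ml of 3% thioglycollate, a sterile irritant, had been given into the peritoneum 4 days before collection, the cells had been purified by adherence for 2 hours and 100 ng/ml LPS, the ligand of Toll-like receptor 4, had been applied for 6 hours. Per the labels 92 to 95% of the cells carried Mac-1. Strain background, age, the allele of the mutation, the number of mice and any pooling are not stated in the labels. With a single array per genotype the differences below are those between 2 arrays, without replicates, and the genotypes could not be tested.

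Collagens are built from alpha chains that wind into triple helices. Fibrillar types I, III and V give tissues tensile strength, while type IV forms the sheet of basement membranes together with laminins and nidogen. Fibroblasts, smooth muscle cells and mesothelial cells make most of the peritoneal matrix. Macrophages themselves make some matrix proteins, among them fibronectin, versican and type VI collagen, and they bind matrix through integrins, CD44 and syndecans.

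The values are MAS5 signals in arbitrary units, and ratios were taken only between the arrays for the same probe set. Medians and sums over several probe sets mix probes of unlike brightness and describe the arrays only. A probe set was called measurable when its signal on 1 array or both exceeded a floor of 36.4, the median of all signals. Ratios are log2 of knockout over wild type, and where 1 signal lay under the floor the brighter one was divided by the floor, which gives a bound written "at least". The median over all probe sets was 38 in the knockout, against 35 in the wild type, with equal trimmed means. Dusp2 had a signal of 76.8 in knockout cells and 333.0 in wild-type cells, but the labels do not say whether its probe set falls in the deleted stretch. Of the 14 probe sets of the macrophage marker list, 12 were measurable, 8 of them higher in the knockout and 4 lower. Itgam, which encodes a chain of Mac-1, was at 356 in knockout cells and 301 in wild-type cells. For actin, the 3′ control probe set read 2.42 times the 5′ one on the knockout array and 2.54 times on the wild-type array. For Gapdh it read 1.62 times the 5′ one on the knockout array and 1.81 times on the wild-type array.

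Most of the matrix and stromal transcripts were dim or not measurable, and those that were measurable lay on both sides of equality. Of the 74 probe sets, 34 (for 32 genes) were measurable, a share of 45.9%, against 57.4% of all 10276 probe sets with 1 gene symbol that were not array controls. On both arrays, 27 of the 34 were above the floor. The brighter of the 2 signals had a median of 93.8 over the 34, against 130.3 over all measurable probe sets. Lower signals in the knockout were found for 18 and higher signals for 16, with a median log2 ratio of −0.06, against 0.02 over all 5894 measurable probe sets, taking each bound at its value. Acta2 and Col4a1 were 2-fold or more lower (2 of 34, where 1.10% of all measurable probe sets were), and Col7a1 was 2-fold higher (1 of 34, against 1.20%). Both directions together made up 2.31% of all measurable probe sets. At the wider limit of 1.5-fold, 6 were lower (Acta2, Col4a1, Pdgfra, Vcan, Sparc and Col9a3) against a background of 5.87%, and 3 were higher (Col7a1, Col17a1 and Col18a1) against 6.53%. Of the 27 above the floor on both arrays, 19 lay within 1.5-fold, 70.4% against 89.8% of all 5005 probe sets above it on both. These shares are not matched for brightness, as the brighter signal had a median of 133.2 over the 27 and 167.8 over the 5005. The other 7 of the 34 have only bounds, and 6 of these bounds are under 1.5-fold, so the size of those differences is not known.

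**Figure D1:**
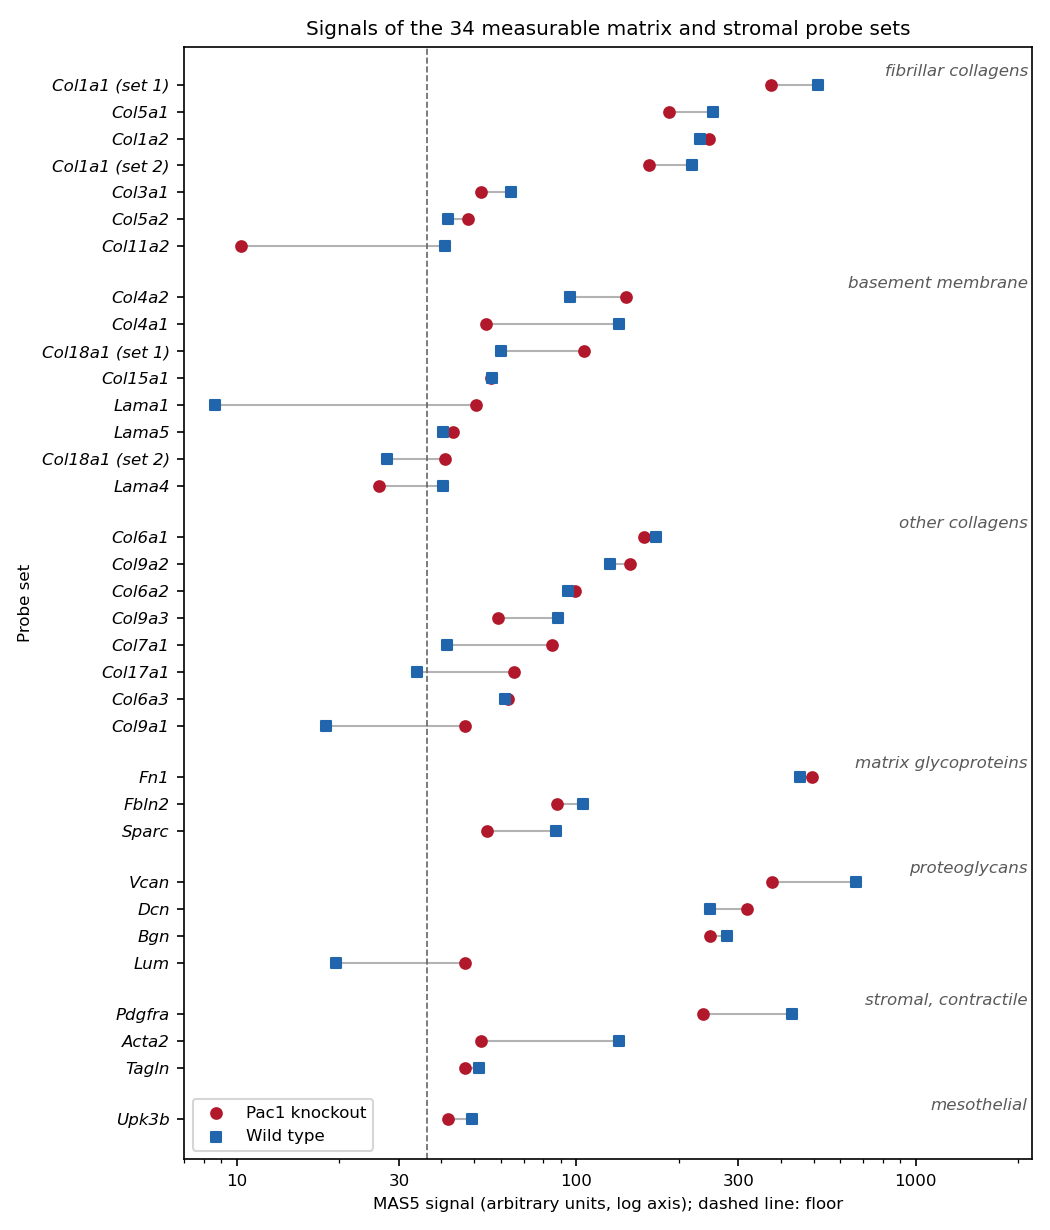
MAS5 signals of the 34 measurable probe sets on the Pac1 knockout array (red circles) and the wild-type array (blue squares), on a log axis in arbitrary units, ordered by role, with 1 array per genotype and so no error bars. The dashed line is the floor of 36.4. The widest gaps with both signals above the floor belong to Acta2 and Col4a1, both lower in the knockout.

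Among stromal receptors and contractile proteins, the 3 measurable genes were all lower in the knockout. Acta2, which encodes smooth muscle alpha-actin, the filament protein of smooth muscle cells and myofibroblasts, had a signal of 52.2 in knockout cells, against 133 in wild-type cells. This was a log2 ratio of −1.35 (2.55-fold lower), the lowest among the 27 members with both signals above the floor. Actin genes are near-identical in sequence, and binding of other actin transcripts to this probe set was not tested. In RNA from a mixed population, fewer cells of a type and less RNA per cell cannot be told apart. Pdgfra, the receptor of platelet-derived growth factor on mesenchymal cells, had 236 in knockout cells and 432 in wild-type cells (−0.88, 1.83-fold lower). The second Pdgfra probe set stayed under the floor in both genotypes. Tagln, which encodes the actin-binding protein SM22 of smooth muscle, was nearly level at 47.0 in knockout cells and 51.5 in wild-type cells (−0.13). The related receptor gene Pdgfrb and the fibroblast surface marker Thy1 were below the floor on both arrays.

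The region before the Acta2 start is shown because the smooth muscle genes are known targets of serum response factor, which binds the CArG box. The RefSeq window (build GRCm38.p6, chr19:34255354-34255623, minus strand) is given 5′ to 3′ from 250 bases before the annotated start to 20 after it, and capitals mark matches to the letters of a TATA box variant and to a CArG box with 1 G or C in its 6-base core.
Acta2: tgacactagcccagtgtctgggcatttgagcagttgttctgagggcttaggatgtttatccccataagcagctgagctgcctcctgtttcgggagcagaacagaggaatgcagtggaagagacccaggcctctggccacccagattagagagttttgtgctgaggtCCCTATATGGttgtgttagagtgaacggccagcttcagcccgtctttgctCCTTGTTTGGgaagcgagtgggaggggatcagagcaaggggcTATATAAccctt
The CArG matches began 84 and 34 bases before the start, and the TATATAA letters lay 9 to 15 bases after it. Searching both strands of 32851 promoter windows of 300 bases, 8.50% held at least 1 such CArG match, 0.679% held 2 or more, and 3.24% held TATATAA. The strict CArG box, with only A and T in the core, was in 1.63% of all windows and not in the Acta2 window. Of the 32 measurable genes 23 had a promoter window, and among these Acta2 was the only one with 2 of the relaxed matches. Tagln, Col1a1 and Fn1 were among those without a window and were not searched. Col1a2, Col6a3 and Fbln2 had 1 relaxed match each and had log2 ratios of 0.09, 0.02 and −0.25. These matches describe letters only and were not set against any binding data.

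Among fibrillar collagens, the chains of type I and of type V had unequal ratios. Col1a1 was measured by 2 probe sets, which gave 374 and 164 in knockout cells, against 514 and 219 in wild-type cells. Their log2 ratios of −0.46 and −0.42 were within 0.04 of each other. Col1a2, the partner chain in type I collagen, was level at 246 in knockout cells and 232 in wild-type cells (0.09). The log2 ratio of Col1a2 thus exceeded that of Col1a1 by 0.55 and 0.51 for the 2 Col1a1 probe sets. Col5a1 had 188 in knockout cells and 252 in wild-type cells (−0.42), and a second Col5a1 probe set was under the floor in both genotypes. The other type V chain, Col5a2, was close to the floor at 48.0 in knockout cells, against 41.8 in wild-type cells (0.20). Col3a1, the single chain of type III collagen, had 52.4 in knockout cells and 64.3 in wild-type cells (−0.30). Its other probe set was under the floor in both genotypes. Col11a2, a cartilage collagen, was under the floor in knockout cells and at 41.0 in wild-type cells, at least 1.13-fold lower. The 6 fibrillar probe sets with both signals above the floor all lay within 1.5-fold. With the Col11a2 bound included, 5 of 7 were lower in the knockout and the median log2 ratio was −0.30. Col2a1 and both probe sets of Col11a1 were not above the floor on either array.

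In basement membrane genes, the chains of type IV collagen differed in opposite directions. Col4a1 had 54.3 in knockout cells and 133 in wild-type cells (log2 ratio −1.29, 2.45-fold lower). Col4a2, whose product joins that of Col4a1 in the same triple helix, had 140 in knockout cells, against 95.6 in wild-type cells (0.55, 1.47-fold higher). The log2 ratios of the 2 chains differed by 1.85. Each gene had 1 probe set. The minor chains Col4a3, Col4a4 and Col4a5 were below the floor on both arrays.

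Col4a1 and Col4a2 lie head to head and are transcribed away from a shared promoter, which is the reason to show it. The 30 bases around both annotated starts are given on the Col4a2 strand (RefSeq, build GRCm38.p6, chr8:11312801-11312830, plus strand), with capitals for the 22 bases from the Col4a2 start to the Col4a1 start.
Col4a1 and Col4a2: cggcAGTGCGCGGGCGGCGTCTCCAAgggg
The annotated starts thus lie 22 bases apart, both ends counted, and the first bases of the 2 transcripts overlap on opposite strands. The GGGCGG letters of a GC box stand within these 22 bases, 8 to 13 bases after the Col4a2 start. Both windows also held CCAAT, which in the Col4a2 window began 32 bases before the start. On either strand, GGGCGG was in 35.7% and CCAAT in 37.4% of all promoter windows. The probe sequences of the Col4a1 and Col4a2 probe sets were not used here.

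Col18a1, whose protein releases endostatin, had 105 in knockout cells and 60.1 in wild-type cells (0.81, 1.75-fold higher) at its brightest probe set. A second Col18a1 probe set, with a suffix for possible cross-hybridisation, was at least 1.13-fold higher, and 3 others were below the floor on both arrays. Col15a1, of the same collagen subgroup, was level at 56.0 in knockout cells and 56.4 in wild-type cells (−0.01). Laminins, the trimeric adhesion proteins of basement membranes, were at or below the limit of measurement. Of 10 laminin probe sets 3 were measurable. Lama1 had 50.6 on the knockout array but was under the floor on the wild-type array, at least 1.39-fold higher. Lama5 had 43.3 in knockout cells, against 40.6 in wild-type cells (0.09), and Lama4 was at least 1.12-fold lower. The chains Lamb1, Lamb2 and Lamc1, which laminin trimers need as partners of alpha chains, and the laminin-binding protein gene Nid1 were below the floor on both arrays.

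**Figure D2:**
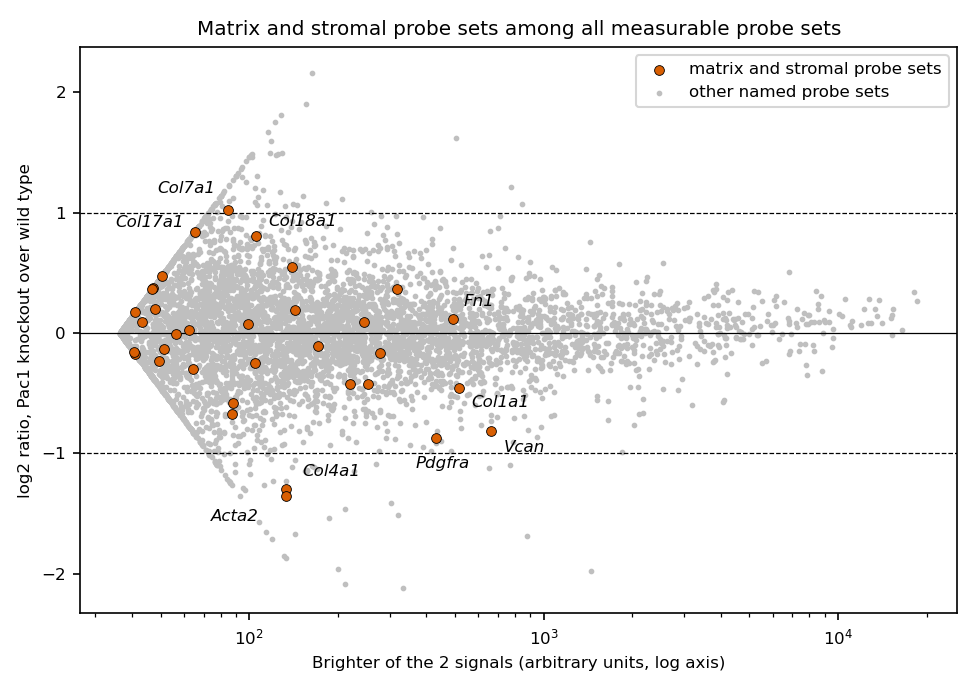
The log2 ratio of Pac1 knockout over wild type against the brighter of the 2 signals (arbitrary units, log axis) for the 34 matrix and stromal probe sets (orange) and the other measurable probe sets with 1 gene symbol (grey), with dashed lines at 2-fold. Acta2 and Col4a1 lie below the lower line and Col7a1 just above the upper one, while Vcan and Pdgfra lie on the lower side of the brighter probe sets. The slanted edges at the left come from the floor.

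Among the other collagens, the chains of type VI, which forms beaded filaments around cells, were nearly level on the arrays. Col6a1 had 158 in knockout cells and 171 in wild-type cells (−0.11). Col6a2 had 99.4 in knockout cells and 94.5 in wild-type cells (0.07), and Col6a3 had 62.7 in knockout cells, against 61.7 in wild-type cells (0.02). Chains of type IX, a collagen of the surface of cartilage fibrils, went apart. Col9a2 had 144 in knockout cells and 126 in wild-type cells (0.19), Col9a3 had 58.8 in knockout cells and 88.2 in wild-type cells (−0.58), and Col9a1 was at least 1.29-fold higher. Col7a1, which forms the anchoring fibrils of the skin, had 84.9 in knockout cells, against 41.7 in wild-type cells (1.03, 2.04-fold higher), the highest ratio among the 27 members with both signals above the floor, its wild-type signal only just so. The Col7a1 ratio was 0.91 with the arrays scaled to the same median, 0.96 after quantile normalization, 0.98 after loess and 0.81 with a pseudocount and no floor, so the 2-fold mark was not reached under these settings. Col17a1, the transmembrane collagen of hemidesmosomes, had 65.3 on the knockout array but was under the floor on the wild-type array, at least 1.79-fold higher. The remaining 11 probe sets were below the floor on both arrays. Among them were the other Col6a1 probe set and those of Col8a1, Col10a1, Col12a1, Col13a1, Col14a1 and Col19a1.

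Among matrix glycoproteins, Fn1, which encodes fibronectin, the adhesive protein that binds integrins and collagen, was level at 493 in knockout cells and 455 in wild-type cells (0.12). Sparc, a collagen-binding glycoprotein of remodelling tissue, had 54.6 in knockout cells and 87.3 in wild-type cells (−0.68, 1.60-fold lower). Fbln2, a glycoprotein of elastic fibres and basement membranes, had 87.9 in knockout cells, against 104 in wild-type cells (−0.25). Postn, the gene of periostin, was below the floor on both arrays.

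Proteoglycans, core proteins that carry glycosaminoglycan chains, split between lower and higher. Vcan, the gene of versican, which binds hyaluronan, had 378 in knockout cells and 665 in wild-type cells (−0.81, 1.76-fold lower). Dcn, the gene of decorin, a small proteoglycan that binds collagen fibrils, had 318 in knockout cells and 247 in wild-type cells (0.37, 1.29-fold higher). Bgn, the gene of biglycan, a close relative of decorin, had 247 in knockout cells, against 278 in wild-type cells (−0.17). Its other probe set, with a suffix for possible cross-hybridisation, was below the floor on both arrays. Lum, the gene of lumican, was at least 1.29-fold higher.

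Markers of mesothelium and epithelium were mostly below the floor. Upk3b, a uroplakin gene used as a mesothelial marker, was near the floor at 41.9 in knockout cells and 49.3 in wild-type cells (−0.23). Msln, the gene of mesothelin, had 3.7 in knockout cells and 10.6 in wild-type cells, and the simple-epithelial keratin genes Krt8, Krt18 and Krt19 were likewise below the floor on both arrays.

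Among probe sets over 2 times the floor the spread of ratios was narrower for brighter ones, so the members are set beside all measurable probe sets in 4 bands of the brighter signal. In the band from 72.8 to 145.6, which is 2 to 4 times the floor, the central 90% of ratios ran from −0.83 to 0.92. Of the 10 members in it 2 (Acta2 and Col4a1) were 2-fold lower, where 3.05% of all probe sets in the band were, and 1 (Col7a1) was 2-fold higher, where 4.20% were. Above 291.2, more than 8 times the floor, the central 90% ran from −0.49 to 0.43. The 5 members there were Vcan and Pdgfra, both below this range, and Col1a1, Fn1 and Dcn, all inside it. In the band from 145.6 to 291.2 the range was −0.60 to 0.54, and its 5 members lay between −0.42 and 0.09. In the band from 36.4 to 72.8 the floor itself keeps every ratio within 2-fold and 7 of the 14 members have only bounds, so the spread there was not read. The 10 members in the upper 2 bands, which stand for 9 genes, had a median log2 ratio of −0.29, with 7 lower and 3 higher. Over all probe sets the median was 0 in the band from 145.6 to 291.2 and −0.004 above 291.2.

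Markers of the cells that could supply matrix transcripts are given beside these values. Of the 20 probe sets of the fibroblast list, 12 were measurable, with 7 lower, 5 higher and a median log2 ratio of −0.10. The summed signals of that list were 2984 in knockout cells, against 3354 in wild-type cells. Leaving out the matrix and stromal members, the sums were 1525 in knockout cells and 1583 in wild-type cells. Most of each of these sums came from S100a4. Without the matrix and stromal members, 5 probe sets remained measurable, 3 lower and 2 higher, with a median of −0.03. Among them was S100a4, which leukocytes express too, at 1198 in knockout cells and 1221 in wild-type cells. Fbln1 had log2 ratios of 0.43 and −0.17 from its measurable probe sets, and Mfap5 was at least 1.05-fold higher. The collagen receptor gene Ddr2, also in this list, was under the floor in knockout cells and at 57.3 in wild-type cells, at least 1.57-fold lower. Of 13 smooth muscle and pericyte probe sets 6 were measurable. Summed signals over the list were 558 in knockout cells and 657 in wild-type cells. These sums include Acta2 and Tagln, and without them were 458.5 in knockout cells and 472.3 in wild-type cells. Beyond Acta2 and Tagln the measurable ones were Actg2 (220 in knockout cells, against 246 in wild-type cells, from a probe set with a suffix for possible cross-hybridisation between near-identical actins), Mylk, Tpm2 and Des, with a median of 0.09, and the smooth muscle markers Myh11 and Cnn1 were below the floor on both arrays. Of 13 mesothelial and epithelial probe sets 2 were measurable, Upk3b and the cadherin gene Cdh1, which had 120 in knockout cells and 104 in wild-type cells (0.20). The summed signals of that list were 277 in knockout cells and 284 in wild-type cells. Leaving out its matrix and stromal members, they were 181.6 in knockout cells and 183.4 in wild-type cells. Of 17 endothelial probe sets 4 were measurable, 2 lower and 2 higher, with a median log2 ratio of −0.12. The summed signals of the list were 2513 in knockout cells and 2569 in wild-type cells. Most of that sum came from 1 probe set of Eng, at 2121 in knockout cells, against 2111 in wild-type cells. The other Eng probe set was under the floor in knockout cells and at 42.9 in wild-type cells, at least 1.18-fold lower. Vwf, the gene of von Willebrand factor, was at 164 in knockout cells and 217 in wild-type cells (−0.40). The measurable probe set of Flt1 was at 39.8 in knockout cells and under the floor in wild-type cells, at least 1.09-fold higher. Pecam1, Cdh5 and Kdr were below the floor on both arrays. Macrophage markers summed to 28698 in knockout cells and 25252 in wild-type cells, with a median log2 ratio of 0.20 over 12 measurable probe sets. Cd14, the LPS co-receptor gene, had 8581 in knockout cells and 7270 in wild-type cells (0.24), and the lysozyme gene Lyz2 had 5769 in knockout cells and 5165 in wild-type cells (0.16). The scavenger receptor gene Msr1 was lower in the knockout, at 1366 in knockout cells and 2171 in wild-type cells (−0.67) from its brighter probe set and with a log2 ratio of −0.30 from the other. Mrc1 (−0.29) and Marco (−0.15) were also lower. The part of other cells in the Acta2, Pdgfra, Vcan and Col4a1 differences was not tested.

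Genes that process or bind matrix differed by less than 1.5-fold wherever both signals were above the floor, as did 89.8% of all 5005 such probe sets. Of 16 probe sets for collagen-processing and crosslinking enzymes 11 were measurable, with a median log2 ratio of 0.05, and the 10 above the floor on both arrays lay within 1.5-fold. Colgalt1, a collagen galactosyltransferase gene, had 385 in knockout cells and 373 in wild-type cells, and the collagen prolyl hydroxylase gene P4ha1 had 211 in knockout cells, against 268 in wild-type cells (−0.34). Serpinh1, the collagen chaperone gene, had 180 in knockout cells and 219 in wild-type cells (−0.29). The crosslinking enzyme genes Lox, Loxl1 and Loxl3 were below the floor on both arrays. Of 31 matrix receptor probe sets 22 were measurable, with 14 lower and 8 higher. The 16 above the floor on both arrays lay within 1.5-fold. Ddr2, also in this list and under the floor in knockout cells, was at least 1.57-fold lower. The integrin gene Itgb1 had 7238 in knockout cells and 7006 in wild-type cells, and Itgav had 4391 in knockout cells, against 4503 in wild-type cells, each from a probe set with a suffix for possible cross-hybridisation. Another Itgav probe set with such a suffix was at least 1.46-fold lower, and a further one without it was at least 1.26-fold higher. Other matrix proteins had 12 of 44 probe sets measurable, with a median of 0.06, and the 10 above the floor on both arrays lay within 1.5-fold. Among these the proteoglycan gene Srgn, typical of blood cells, had 818 in knockout cells and 873 in wild-type cells, and Cd93, a receptor gene placed in that list, had 884 in knockout cells and 824 in wild-type cells.

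**Figure D3:**
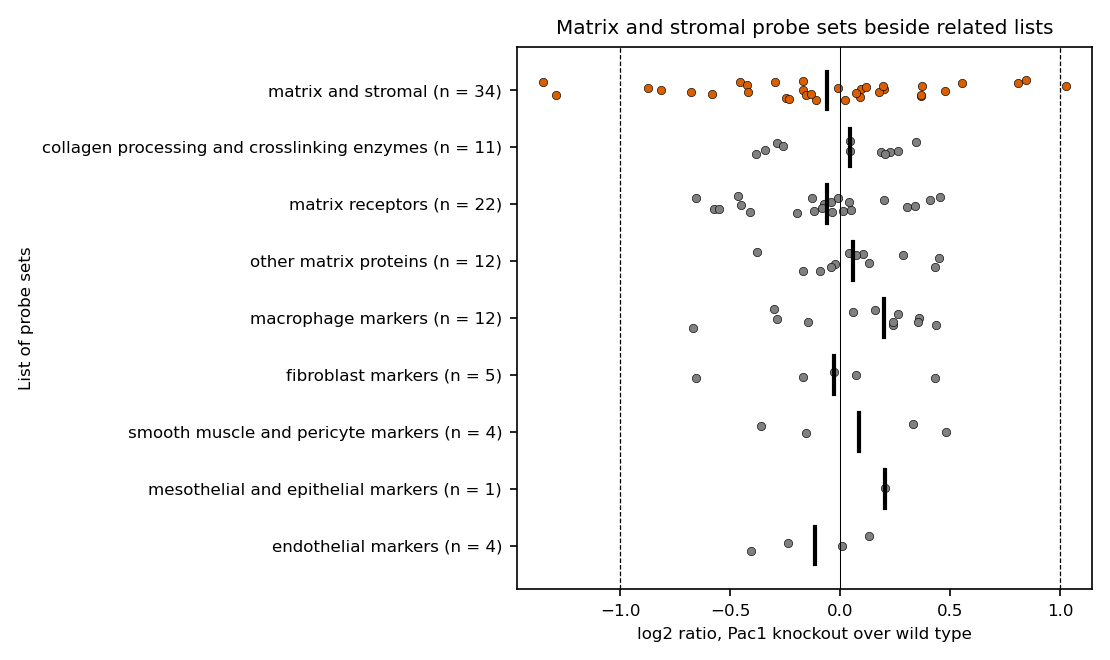
The log2 ratio of Pac1 knockout over wild type of each measurable probe set (points) and its median (bar) for the matrix and stromal genes and for the 8 related lists, from which matrix and stromal members were removed. Points are spread vertically for legibility only and dashed lines mark 2-fold. Probe sets with 1 signal below the floor are drawn at their bound. Among those above it on both arrays the matrix and stromal ratios run from −1.35 to 1.03. No remaining probe set of the other lists was 2-fold apart, where 2.31% of all measurable probe sets were. Acta2, also in the smooth muscle list, is drawn with the matrix and stromal genes.

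Repeat measurement within an array was available for few genes. Of the 12 genes with several probe sets, 2 (Col1a1 and Col18a1) had more than 1 that was measurable, and both pairs had ratios of one sign. Over 9 settings of scaling, floor and probe-set filter, the ratios of Vcan ran from −0.93 to −0.79 and those of Pdgfra from −0.99 to −0.83. The 2 Col1a1 probe sets ran from −0.58 to −0.43 and from −0.54 to −0.39. Acta2 and Col4a1 were 2-fold lower under 8 of the 9. With the floor raised to the 75th percentile of the signals, which is close to their wild-type signals, their ratios were both −0.04. The 9 include the reported setting, and those without rescaling and without cross-hybridising probe sets repeat its ratios by construction. The floor at the 25th percentile also does so for probe sets above the reported floor on both arrays, Acta2 and Col4a1 included. Genes near equality changed sign between settings, namely Fn1, Col1a2, Col6a2, Col6a3 and Lama5.

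**Figure D4:**
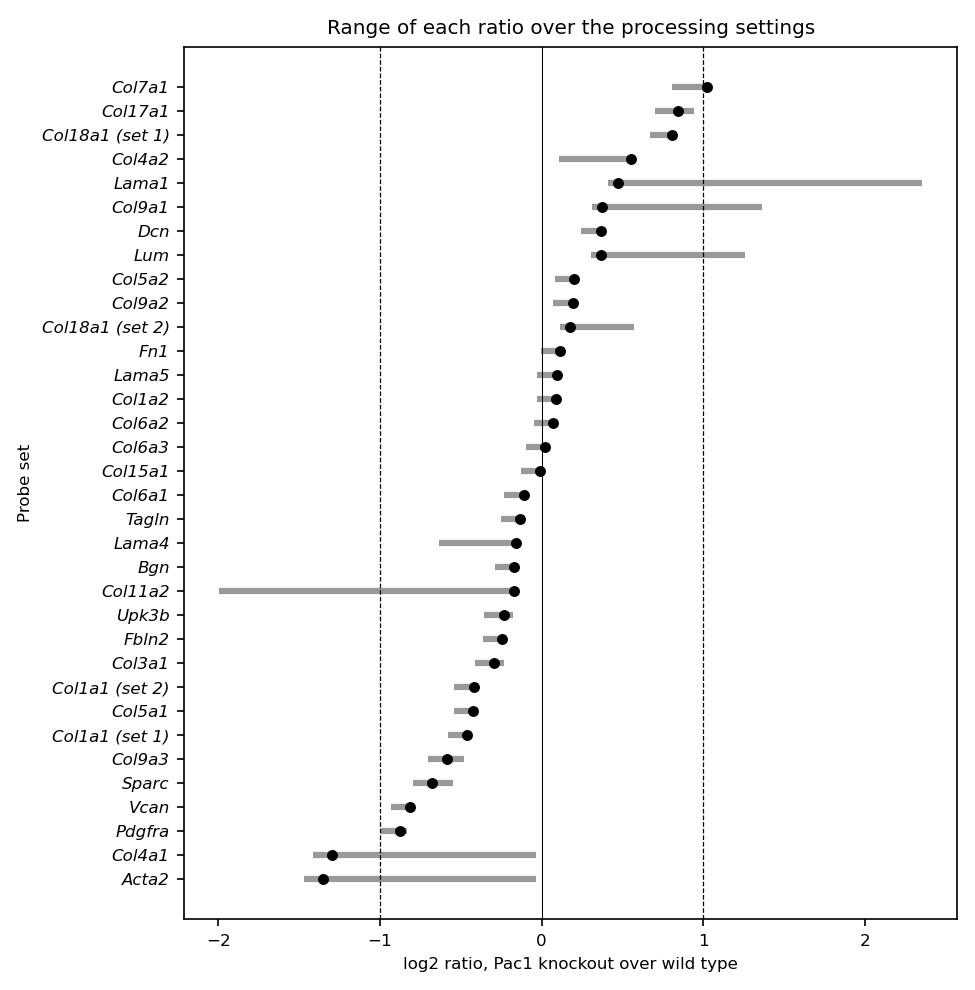
The log2 ratio of Pac1 knockout over wild type of each measurable probe set as reported (black point) and its lowest to highest value over the processing settings (grey bar), with dashed lines at 2-fold. Vcan, Pdgfra and Col1a1 have short bars below 0, and the longest bars belong to probe sets with 1 signal below the floor (Lama1, Col11a2) and to Acta2 and Col4a1.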

How the data were processed

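RNA of 1 Pac1-/- and 1 wild-type preparation was hybridised to 1 Affymetrix array each. The authors deposited 1 MAS5 intensity per probe set on a linear scale, per the submitters' processing notes. No version or settings are named, and detection calls were not used here. The deposited intensities had equal 2% trimmed means (150.0 on both arrays), so rescaling to that mean left them as they were to 1 decimal. RNA (500 to 1000 ng) was copied from a poly(T) primer and amplified, per the labels' protocols, which weights transcript 3′ ends. The number of arrays limits the precision.

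Of 12654 probe sets, 10298 had 1 gene symbol in the platform's annotation table, 363 had several and 1993 were not in it, and 22 of the first were control probe sets and were left out. All 74 members matched a RefSeq gene identifier (GRCm38.p6) with the same symbol, and 13 had a suffix that marks possible cross-hybridisation, 1 of them measurable. Probe sets of this array generation designed against the wrong strand were not identified here. Promoter windows are from RefSeq, with 38 of 59 genes matched. The collagen, laminin and other members, and the 8 lists, were chosen with earlier results of these data known, as was the rule that named every measurable member, Dusp2, and of each list its brightest 2 and any 2-fold members. Further list genes named were chosen after their values were seen.

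Signals were raised to the floor and log2 ratios were taken in Python 3.11.15 with pandas 2.3.3. No p-value or standard error was computed. The calculation was tested on simulated data. Alternatives covered 4 scalings (same median, quantile, loess with a span of 0.4, none), 3 floors (the 25th or 75th percentile of all signals, or none with a pseudocount of 16), a probe-set filter and 2 summaries per gene.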

Additional observations from a re-analysis of the deposited data

How the results depend on the processing

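The counts of measurable and of 2-fold members depended on the floor. At the 25th percentile of all signals, 61 members were measurable, 8 were 2-fold lower and 8 higher, their median log2 ratio was 0.073 and 12.2% of all measurable probe sets were 2-fold apart. At the 75th percentile, 14 members were measurable, 0 were 2-fold lower and 0 higher, and 0.373% of all measurable probe sets were 2-fold apart. With no floor and a pseudocount of 16 all 74 members had a value, 4 were 2-fold lower and 2 higher, the median was 0.055 and the share of all was 4.05%. Median scaling, quantile normalization and loess each left 0 members 2-fold higher, with 2 lower. Scaling to the same median moved the median of all probe sets by −0.11 and gave 24 members lower and 11 higher, against 18 and 16 as reported, and the split of all 2-fold probe sets became 49 higher and 101 lower, against 71 and 65. Acta2 and Col4a1 were the 2 lower members under each of the 4 scalings, without cross-hybridising probe sets and under both summaries per gene. Of the ratios of single members under alternatives, 239 kept to within 1.5-fold and to their side of the 2-fold mark. Another 12 moved past 1.5-fold or across the 2-fold mark. The settings without rescaling and without cross-hybridising probe sets repeat the reported ratios, so agreement there was fixed in advance. A changed floor also repeats the reported ratio wherever both signals exceed both floors. That was so for Acta2 and Col4a1 at the 25th percentile. The 2 summaries per gene repeat it for genes with 1 probe set, Acta2 and Col4a1 included. None of Acta2, Col4a1 and Col7a1 changed sign, but a changed floor or a pseudocount cannot reverse a sign. Col7a1 was not measurable at the 75th percentile. By construction the floor sets which probe sets are measurable and also raises the dimmer signal of those that are, as for Acta2 and Col4a1 at the 75th percentile. The cause of the other shifts was not tested. No paired analysis was possible because there was 1 array per genotype.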
